A study of Mus musculus with 4 samples.

Results

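The genes described here encode 9 receptors and adhesion molecules with which haematopoietic stem cells (HSCs) find, enter, hold on to and leave their niches: the chemokine receptor gene *Cxcr4*, the integrin subunit genes *Itga4*, *Itgb1*, *Itga6*, *Itgal* and *Itgb2*, the selectin ligand gene *Selplg*, the hyaluronan receptor gene *Cd44* and the sphingosine 1-phosphate (S1P) receptor gene *S1pr1*. They were chosen by name, and all 9 were found among the 23906 gene symbols of the deposited tables. RNA was sequenced from LSK-SLAM cells (lineage-negative, Sca1+, cKit+, CD150+, CD48-), the phenotype that enriches for HSCs, of *BRE-GFP* transgenic mice on a C57BL/6 background. In these mice GFP is made when BMP signalling acts through Smad1/5 on a BMP-responsive element, so GFP+ cells are BMP activated and GFP- cells are not, at the moment of sorting. There were 4 libraries: GFP+ and GFP- cells of the fetal liver (FL) at embryonic day 14, and GFP+ and GFP- cells of adult bone marrow (BM). All 4 carry the same transgene and no treatment is named. Embryos came from heterozygous transgenic males and wild-type females, the data shown by the study are of 1 of its transgenic lines, and how many embryos or mice were pooled for a library, and the age of the adult mice used for RNA, are not given in the sources used here.

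Each condition had 1 library. No difference below has a replicate check, none was tested, and no p-value is given. Levels are in FPKM, counts of sequenced fragments scaled to transcript length and library size, so that genes can be set side by side. Differences are given as folds of FPKM or as differences of log2(FPKM + 1), on which low genes differ by less than their fold. A gene is called past 2-fold, the threshold that the study applied to GFP+ and GFP- cells of both tissues jointly and that is applied here to each comparison on its own, when its FPKM in one library is more than 2 times that in the other and at least 1 of the libraries compared reaches an FPKM of 1.

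HSCs move between niches in development and, in small numbers, throughout life. CXCR4 on the stem cell follows the chemokine CXCL12, which niche stroma secretes. Integrins are pairs of an alpha and a beta chain: the α4β1 integrin (*Itga4* with *Itgb1*) binds VCAM1 and fibronectin, the α6β1 integrin (*Itga6* with *Itgb1*) binds laminin, and the αLβ2 integrin or LFA-1 (*Itgal* with *Itgb2*) binds ICAM proteins. PSGL-1, the product of *Selplg*, and CD44 let cells roll on selectins, CD44 also binds hyaluronan, and S1PR1 draws cells out of tissues towards the S1P of blood and lymph.

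The labels and the markers of the cells were compared before the receptor genes. The GFP labels, on which every GFP+ and GFP- comparison rests, were not checked against the data. Tissue labels and fetal markers went together: all 5 fetal stage genes (*Lin28b*, *Hmga2*, *Igf2bp1*, *Igf2bp2*, *Igf2bp3*) were higher in both FL libraries than in both BM libraries, with summed FPKM of 473 and 123 against 6.9 and 6.37. The library labelled BM GFP+ stood apart from its cell type label. Of 11 LSK-SLAM markers, 10 were past 2-fold lower in it than in the BM GFP- library, among them *Procr*, listed at 0 against 60.8, and *Fgd5*, at 0.0215 against 1.46 FPKM. The exception was *Ly6a*, the gene for Sca1, at 286 against 146 FPKM. *Cd48*, whose product the sort selects against, was at 267 FPKM (BM GFP+), 126 (BM GFP-), 51.4 (FL GFP+) and 17.4 (FL GFP-). Genes of other cell types were highest in the same BM GFP+ library: 9 of 9 neutrophil genes (summed FPKM 60837 against 14747 for BM GFP-, 354 for FL GFP+ and 154 for FL GFP-), 4 of 4 B cell genes (3255 against 868, 96.3 and 41.9), 6 of 6 T and NK cell genes (562 against 354, 17.9 and 10.1) and 7 of 8 macrophage genes (308 against 99.9, 79.5 and 45.3). Of the neutrophil list, *Mpo* (5777 against 4754 FPKM in BM GFP-) and *Elane* (3991 against 3042) were under 2-fold between the BM libraries. So was *Nkg7* (430 against 323), which held most of the T and NK cell sums. *Cd3e* and *Cd3g*, which define T cells, were at 0 in both FL libraries, and *Ms4a1*, a B cell gene, was at 0 in FL GFP+ cells. The 4 hepatocyte genes had their highest sum in FL GFP+ cells, 324 FPKM against 23.2 in FL GFP- and 13.3 and 5.76 in BM GFP+ and GFP- cells. Sums of 5 erythroid genes were 1075 (FL GFP+), 1077 (FL GFP-), 5251 (BM GFP+) and 849 (BM GFP-), those of 4 megakaryocyte genes were 43.7 and 58 in FL and 336 and 390 in BM, and those of 4 endothelial genes were 1.16 to 9.44. What part these markers have in the receptor levels was not tested, and the counts of genes between the tissues are given below with and without the BM GFP+ library. The comparison of GFP+ with GFP- cells in BM, the profiles over the 4 libraries and the count of genes highest in BM GFP+ cells rest on that library and have no version without it.

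**Figure D1:**
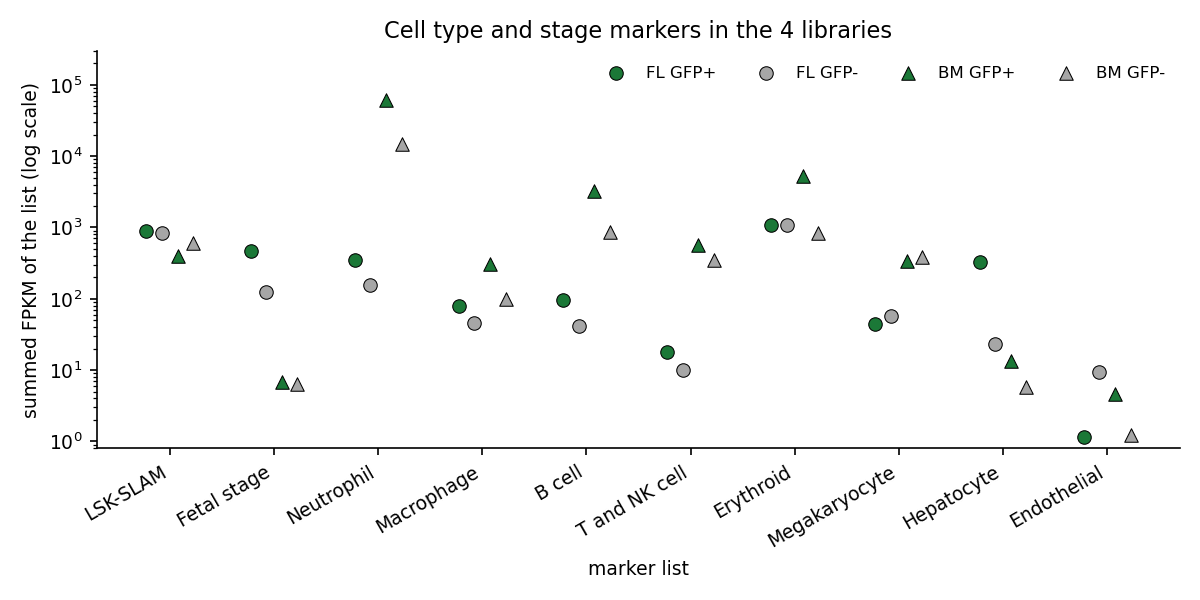
Summed FPKM on a log axis (y) of each cell type or stage marker list (x) in the 4 libraries, 1 point per library, circles for FL and triangles for BM, green for GFP+ and grey for GFP-. Neutrophil, B cell, T and NK cell, macrophage and erythroid sums were highest in BM GFP+ cells, where the LSK-SLAM sum was lowest.

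Promoter sequences of 4 of the 9 genes (*Cxcr4*, *Itga4*, *Itgb1*, *Cd44*) were listed in RefSeq for GRCm38.p6. The 3 given here are those of *Itgb1* and *Itga4*, whose products pair as one integrin, and of *Cxcr4*. Leaving out *Itga6*, which was listed at 0 in BM GFP+ cells, *Cxcr4* had the highest ratio of geometric mean FPKM between the tissues. Each promoter given is the stretch of 250 bases before the annotated start, read 5′ to 3′ on the strand of the gene. It lies at chr8:128685404-128685653 (plus strand) for *Itgb1*, at chr2:79255176-79255425 (plus strand) for *Itga4* and at chr1:128592300-128592549 (minus strand) for *Cxcr4*. Capitals mark the letters of the motifs searched on both strands: GGCGCC, a core of the BMP-responsive element that drives GFP in these mice, the GC box GGGCGG, the ETS core CCGGAA, the CAAT box CCAAT, and TATAAA. The GC box and GGCGCC can overlap in GC-rich sequence, but did not here.
Itgb1: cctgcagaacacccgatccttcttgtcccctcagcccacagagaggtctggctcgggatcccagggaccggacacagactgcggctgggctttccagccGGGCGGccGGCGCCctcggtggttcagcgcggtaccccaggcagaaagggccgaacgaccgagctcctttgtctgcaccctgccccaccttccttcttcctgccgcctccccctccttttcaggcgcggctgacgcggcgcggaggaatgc
Itga4: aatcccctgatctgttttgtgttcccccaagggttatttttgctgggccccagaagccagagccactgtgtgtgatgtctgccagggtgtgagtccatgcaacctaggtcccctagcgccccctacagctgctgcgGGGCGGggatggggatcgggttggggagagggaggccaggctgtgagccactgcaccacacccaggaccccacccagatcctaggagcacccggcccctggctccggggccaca
Cxcr4: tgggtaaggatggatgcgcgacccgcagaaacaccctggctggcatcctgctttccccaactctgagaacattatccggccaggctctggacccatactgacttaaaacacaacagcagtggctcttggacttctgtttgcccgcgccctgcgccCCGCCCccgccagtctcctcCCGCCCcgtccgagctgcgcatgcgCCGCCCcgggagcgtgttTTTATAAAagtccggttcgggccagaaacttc
The BMP element core occurred once in the *Itgb1* window and in none of the other 3, and 9.59% of the 32851 promoters of the table hold it. The *Cxcr4* window held 3 GC boxes and overlapping TATAAA matches near its start, the windows of *Itga4* and *Itgb1* held 1 GC box each, and 32.7% of all promoters held a GC box and 12.4% TATAAA. The *Cd44* window held none of the motifs. No window of the 4 held CCGGAA (12% of all promoters) or CCAAT (33.8%). These are matches of letters, and binding was not measured.

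Among the chemokine and egress receptors, *Cxcr4* (chromosome 1 of GRCm38.p6, 128588199 to 128592299) was a gene of low level, above 13.5% and 20.7% of the genes detected in FL GFP+ and GFP- cells and above 35.4% and 42.2% of those in BM. It was at 0.232 FPKM (FL GFP+), 0.547 (FL GFP-), 4.40 (BM GFP+) and 2.26 (BM GFP-). Both BM libraries were above both FL libraries, in which *Cxcr4* did not reach an FPKM of 1. *S1pr1* (chromosome 3, 115710433 to 115715055), the receptor for egress, was at 8.62 FPKM (FL GFP+), 10.95 (FL GFP-), 62.2 (BM GFP+) and 14.5 (BM GFP-). The other libraries lay close together and BM GFP+ stood above them. The range of *S1pr1* over the libraries, 2.72 on the log2(FPKM + 1) scale, was the widest of the 9 genes.

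Of the β1 integrins, the shared beta chain *Itgb1* (chromosome 8, 128685654 to 128733579) was abundant throughout, at 73.5 FPKM (FL GFP+), 54.1 (FL GFP-), 41.4 (BM GFP+) and 56.8 (BM GFP-). It was above 77.2% to 87.4% of the genes detected in each library, and its highest level was 1.78 times its lowest. *Itga4* (chromosome 2, 79255426 to 79333114), the α4 chain, was at 20.8 FPKM (FL GFP+), 14.5 (FL GFP-), 8.98 (BM GFP+) and 5.71 (BM GFP-). Both FL libraries were above both BM libraries, and within each tissue the GFP+ library was the higher. *Itga6* (chromosome 2, 71786886 to 71858427), the α6 chain, was at 3.35 FPKM (FL GFP+), 3.38 (FL GFP-) and 4.61 (BM GFP-) and was listed at 0 in BM GFP+ cells. The libraries in which it was detected were alike. Of the 11 LSK-SLAM markers, *Procr* alone was also listed at 0 in BM GFP+ cells, where 13489 of all 23906 symbols were above 0.

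Of the leukocyte integrin LFA-1, the beta chain *Itgb2* (chromosome 10, 77530329 to 77565708), which all β2 integrins of myeloid and lymphoid cells share, was at 53.0 FPKM (FL GFP+), 43.6 (FL GFP-), 190 (BM GFP+) and 65.0 (BM GFP-). The alpha chain *Itgal* (chromosome 7, 127296139 to 127335137) was at 7.36 FPKM (FL GFP+), 14.2 (FL GFP-), 23.7 (BM GFP+) and 8.99 (BM GFP-). Both chains were highest in BM GFP+ cells, but the order of the remaining libraries differed between them, and for *Itgal* the FL and BM levels overlapped.

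Of the rolling receptors, *Selplg* (chromosome 5, 113817798 to 113832528) was at 54.7 FPKM (FL GFP+), 61.7 (FL GFP-), 239 (BM GFP+) and 133 (BM GFP-). Both BM libraries lay above both FL libraries, and *Selplg* was the most abundant of the 9 genes in all libraries but FL GFP+, where *Itgb1* was. *Cd44* (chromosome 2, 102811141 to 102901669) was the most even of the 9, with an FPKM of 29.3 (FL GFP+), 32.1 (FL GFP-), 50.5 (BM GFP+) and 37.5 (BM GFP-), and a highest level 1.72 times the lowest. Both BM levels were above both FL levels by a narrower margin, 37.5 FPKM in BM GFP- against 32.1 in FL GFP- cells (1.17-fold).

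In order of level, *Selplg*, *Itgb1*, *Itgb2* and *Cd44* held the first 4 places in FL GFP+, FL GFP- and BM GFP- cells. In BM GFP+ cells *S1pr1* took the place after *Selplg* and *Itgb2*, ahead of *Cd44* and *Itgb1*. *Cxcr4* was last in every library except BM GFP+, where *Itga6* was. Neighbours in these orders such as *Itgb2* and *Selplg* in FL GFP+ cells (53.0 and 54.7 FPKM) cannot be separated without replicates. The 9 genes summed to 251 FPKM (FL GFP+), 235 (FL GFP-), 621 (BM GFP+) and 328 (BM GFP-), and 6 of the 9 had their highest level in BM GFP+ cells. Of all 13609 genes that reached an FPKM of 1, 33.9% did.

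**Figure D2:**
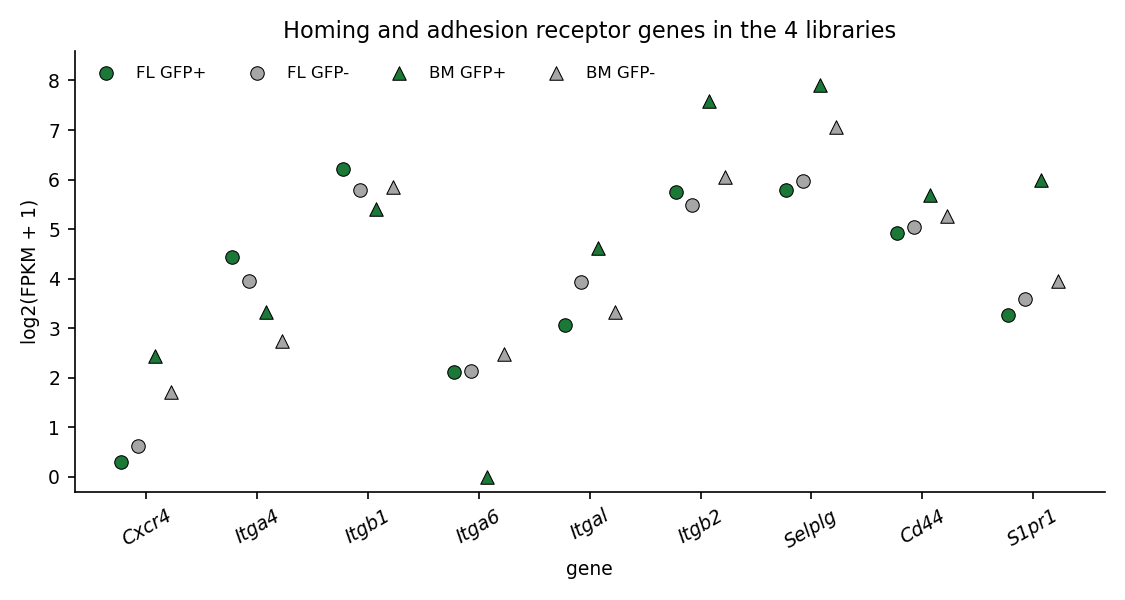
Levels as log2(FPKM + 1) (y) of the 9 genes (x), 1 point per library, circles for FL and triangles for BM, green for GFP+ and grey for GFP-. *Cxcr4*, *Itgb2*, *Selplg*, *Cd44* and *S1pr1* had both triangles above both circles, *Itga4* had both below, and *Itga6* was at 0 in BM GFP+ cells.

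In the FL, BMP-activated and non-activated cells were compared for the 8 genes that reached an FPKM of 1, and 0 of the 8 were past 2-fold. Of all 12134 genes compared, 44.7% were. Among genes that reached an FPKM of 10 the counts were 0 of 7 members and 29.8% of 7552 genes. The difference nearest to the rule was that of *Itgal*, 1.93-fold lower in GFP+ cells. *Itga4* was 1.43-fold and *Itgb1* 1.36-fold higher in GFP+ cells, *Itgb2* was 1.21-fold higher, *S1pr1* was 1.27-fold, *Selplg* 1.13-fold and *Cd44* 1.09-fold lower, and *Itga6* was 1.01-fold lower. *Cxcr4*, under an FPKM of 1 in both fractions, was not compared. The median difference of the 8 genes, GFP+ minus GFP-, was -0.07 on the log2(FPKM + 1) scale, against 0.05 for all genes compared. When the libraries were scaled to equal FPKM totals, to equal upper quartiles, or to equal totals without microRNA and small nucleolar RNA genes, *Itgal* alone passed 2-fold.

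In the BM, 4 of the 9 genes were past 2-fold, against 40.7% of all 12385 genes compared (21.1% higher and 19.6% lower in GFP+ cells). *S1pr1* was 4.29-fold, *Itgb2* 2.93-fold and *Itgal* 2.64-fold higher in GFP+ cells, and *Itga6* was listed at 0 there against 4.61 FPKM in GFP- cells. The share of 4 in 9 is close to that of all genes. Higher in GFP+ cells but under 2-fold were *Cxcr4* (1.95-fold), *Selplg* (1.80-fold), *Itga4* (1.57-fold) and *Cd44* (1.35-fold), and *Itgb1* was 1.37-fold lower. The median difference was 0.73 on the log2(FPKM + 1) scale, against 0.12 for all genes compared. In BM the neutrophil, B cell, T and NK cell and macrophage sums given above were also higher in GFP+ cells. There 10 of the 11 LSK-SLAM markers and *Itga6* were past 2-fold lower, and *Itgb1* was lower but under 2-fold. In FL the same sums were also higher in GFP+ cells, but the genes of each list were split. Past 2 times higher in GFP+ and in GFP- cells were 4 and 3 neutrophil, 4 and 4 macrophage, 3 and 1 B cell, and 1 and 1 T and NK cell genes. Of the members in FL, *Itga4*, *Itgb1* and *Itgb2* were higher in GFP+ cells, but *Itgal*, *S1pr1*, *Selplg*, *Cd44* and *Itga6* were lower. With 1 library per fraction, any gene is either higher or lower, so a shared direction does not show a link. A link between sums and members was not tested. In libraries of bulk RNA, fewer cells of a type and less RNA per cell cannot be told apart. Scaling to equal FPKM totals lowered all BM ratios of GFP+ to GFP- by the same amount (a shift of -0.46 on the log2 scale), which left *Itgal* under 2-fold and turned the sign of *Cd44* (0.42 to -0.03), while *S1pr1*, *Itgb2* and *Itga6* stayed past 2-fold.

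**Figure D3:**
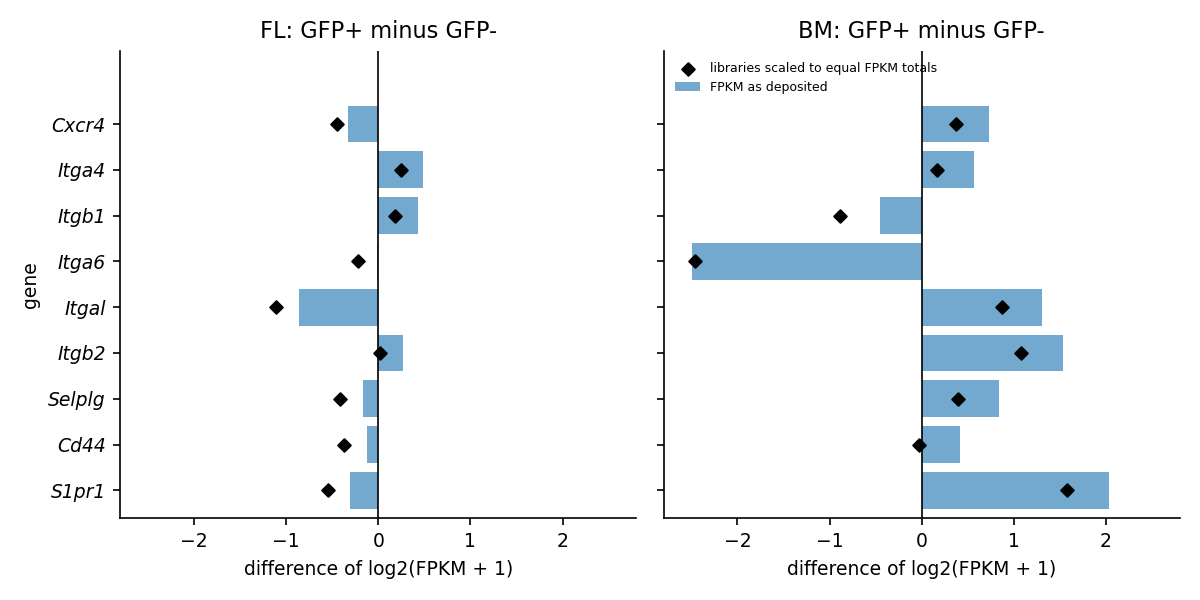
Difference GFP+ minus GFP- of log2(FPKM + 1) (x) for each gene (y) in FL (left) and BM (right). Bars are FPKM as deposited and diamonds the same after scaling all libraries to equal FPKM totals. FL bars stayed between -0.86 (*Itgal*) and 0.49 (*Itga4*), and BM bars reached from -2.49 (*Itga6*, listed at 0 in GFP+ cells) to 2.03 (*S1pr1*).

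The GFP difference was then set side by side between the tissues, with 1 library behind each value. *Itga4* was the gene with the same direction and nearly the same size in both, 0.49 in FL and 0.57 in BM on the log2(FPKM + 1) scale. Both differences were under 2-fold. *Itgb2* was also higher in GFP+ cells of both tissues, by 0.27 in FL and 1.53 in BM. *Itgal* differed in opposite directions, -0.86 in FL and 1.31 in BM, and so did *S1pr1* (-0.31 and 2.03), *Cxcr4* (-0.33, from levels under an FPKM of 1, and 0.73), *Selplg* (-0.17 and 0.84), *Cd44* (-0.12 and 0.42) and *Itgb1* (0.43 and -0.45). These values are as deposited. With equal FPKM totals, *Itga4* was at 0.25 in FL and 0.17 in BM and *Itgb2* at 0.02 and 1.08. *Cd44* was then lower in GFP+ cells of both tissues, at -0.37 and -0.03. The BM difference minus the FL difference was largest for *S1pr1* (2.34) and *Itgal* (2.17) and, in the other direction, for *Itga6* (-2.48). No gene of the 9 was past 2-fold in the same direction in both tissues, where 3.45% of all 10910 genes compared in both were past it as higher and 6.48% as lower in GFP+ cells.

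Between adult BM and FL, 5 of the 9 genes were past 2-fold with both libraries of one tissue above both of the other, against 30.2% of all 13609 genes compared (17.6% higher in BM and 12.6% higher in FL). Levels did not overlap for 6 of the 9, against 46.1% of all genes. By the geometric mean of the 2 fractions, *Cxcr4* was 8.84-fold, *S1pr1* 3.09-fold, *Selplg* 3.07-fold and *Itgb2* 2.31-fold higher in BM, and *Itga4* was 2.43-fold higher in FL. *Cd44* was higher in both BM libraries by a mean of 1.42-fold in FPKM as deposited, a direction that turned with equal FPKM totals. The levels of *Itgb1*, *Itga6* and *Itgal* overlapped between the tissues.

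Without the BM GFP+ library, the comparison of the GFP- libraries alone left 3 of the 9 genes past 2-fold, against 37.9% of the 12703 genes compared (18.6% higher and 19.3% lower in BM). These were *Cxcr4*, 4.12-fold higher in BM, *Selplg*, 2.16-fold higher in BM, and *Itga4*, 2.55-fold higher in FL. When the libraries were also rescaled, *Cxcr4* (2.98-fold to 3.67-fold) and *Itga4* (2.86-fold to 3.52-fold) stayed past 2-fold under each of the 3 scalings, and *Selplg* did not, at 1.56-fold to 1.92-fold. As deposited, the 3 were also past 2-fold between the GFP+ libraries, by 18.9-fold, 4.37-fold and 2.31-fold, where 7 of the 9 genes and 58.7% of all 12120 were. *Itgb2* (1.49-fold) and *S1pr1* (1.33-fold) were higher in BM GFP- than in FL GFP- cells but under the rule, and *S1pr1* turned to 1.02-fold lower with equal FPKM totals. *Itgal* was 1.58-fold lower in BM between the GFP- libraries, past 2-fold with equal FPKM totals (2.13-fold), and 3.22-fold higher between the GFP+ libraries. *Itgb1*, at 54.1 and 56.8 FPKM in the GFP- libraries, differed by 1.05-fold, a direction that turned under each scaling. The GFP- libraries also differed in markers of other cell types, with a neutrophil sum of 14747 in BM and 154 in FL. Of the BM sum, *Mpo* held 4754, *S100a8* 3189, *Elane* 3042 and *S100a9* 1871 FPKM. Scaling to equal FPKM totals kept *Cxcr4*, *Selplg* and *Itga4* past 2-fold in the 4-library comparison and ended the call of *Itgb2* and *S1pr1*.

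**Figure D4:**
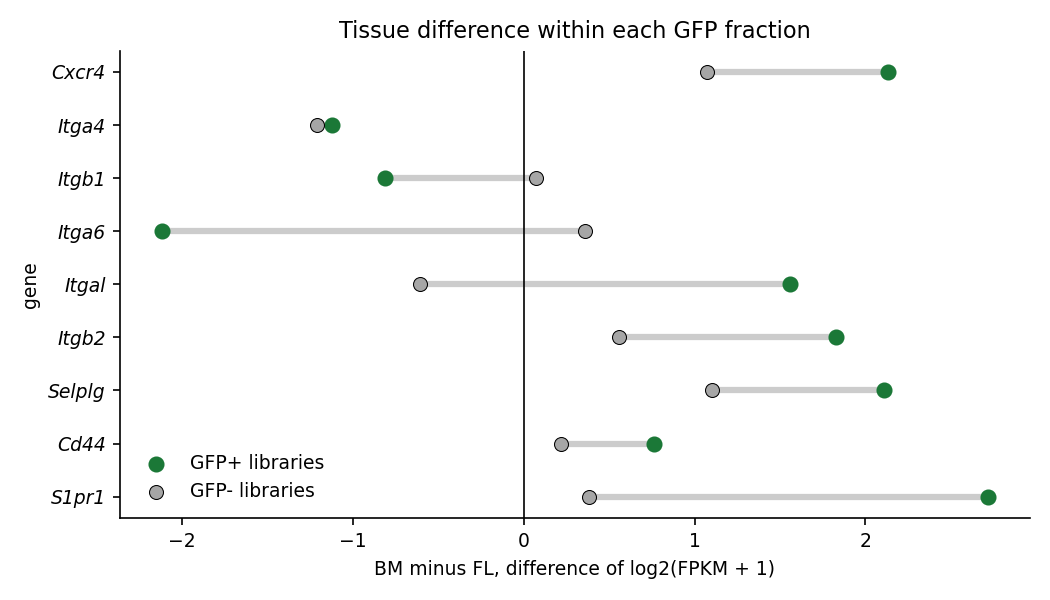
Difference BM minus FL of log2(FPKM + 1) (x) for each gene (y), green between the GFP+ libraries and grey between the GFP- libraries. *Cxcr4* and *Selplg* were above 1 and *Itga4* below -1 in both, and *S1pr1* was at 2.72 between the GFP+ and 0.38 between the GFP- libraries.

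Ratios of subunits within a library do not change with any scaling of that library. There was less alpha chain than beta chain mRNA in each of these 3 pairs, in every library. *Itga4* to *Itgb1* was 0.283 (FL GFP+), 0.269 (FL GFP-), 0.217 (BM GFP+) and 0.101 (BM GFP-), so that the FL libraries were alike and the BM GFP- library held 9.95 FPKM of *Itgb1* for each of *Itga4*. *Itga6* to *Itgb1* was 0.0456 (FL GFP+), 0.0624 (FL GFP-) and 0.0812 (BM GFP-). *Itgal* to *Itgb2* was 0.139 (FL GFP+), 0.326 (FL GFP-), 0.125 (BM GFP+) and 0.138 (BM GFP-). The higher level of both LFA-1 chains in BM GFP+ than in BM GFP- cells thus left their ratio within 1.11-fold, and the FL GFP- library was the one with a different ratio.

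**Figure D5:**
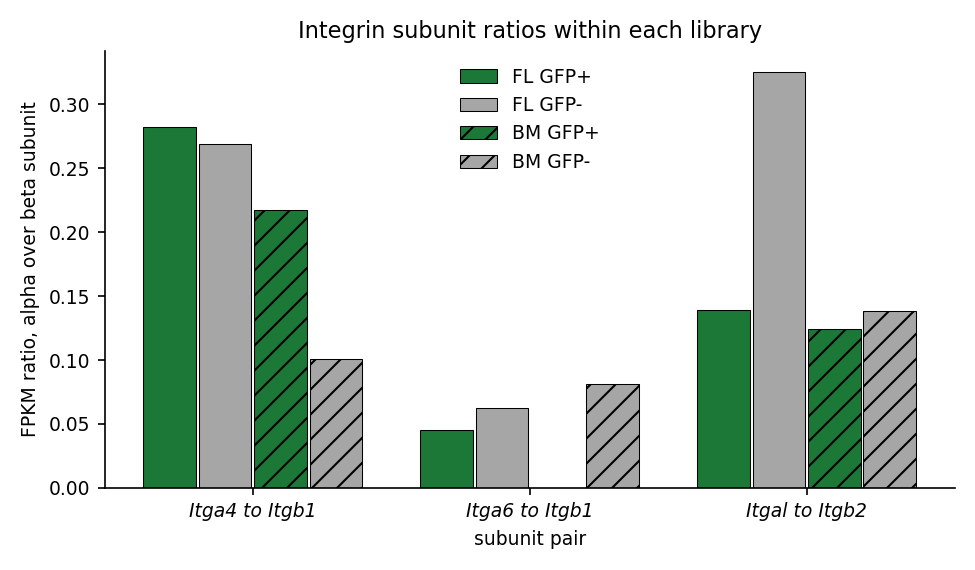
FPKM of the alpha over that of the beta subunit (y, from 0) for 3 integrin pairs (x), 1 bar per library, green for GFP+, grey for GFP- and hatched for BM. The *Itga4* to *Itgb1* ratio was lowest in BM GFP- cells (0.101) and the *Itgal* to *Itgb2* ratio highest in FL GFP- cells (0.326).

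A wider list of 91 genes of homing and adhesion, without the 9, was read in the same way. Past 2-fold were 23 of the 60 that could be compared in FL (11 higher and 12 lower in GFP+ cells), 32 of 73 in BM (23 higher and 9 lower) and 40 of 75 between the tissues (32 higher in BM and 8 in FL). The shares of all genes were 44.7%, 40.7% and 30.2%. Between the GFP- libraries alone, 26 were higher in BM and 6 in FL, of 71, against 18.6% and 19.3% of all genes. Of the 40, 26 were also past 2-fold between the GFP- libraries, and 14 were not: *Dpp4*, *Itga7*, *Itgax*, *Itgb3*, *Itgb5*, *Ilk*, *Sele*, *Selp*, *Cd24a*, *Cd34*, *S1pr2*, *Sgpl1*, *F11r* and *Cd82*. Of the 14, *Itga7*, *Itgax*, *Itgb5* and *Sele* were under an FPKM of 1 in both GFP- libraries and so were not compared there.

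In the CXCR4 axis, *Cxcl12*, the ligand, was listed at 0 in FL GFP+ and was at 1.82 in FL GFP-, 67.7 in BM GFP+ and 7.66 FPKM in BM GFP- cells. *Rgs1* and *Rgs2*, which dampen signalling of chemokine receptors, were also past 2-fold higher in BM, *Rgs1* at 58.1 and 214 FPKM in BM GFP+ and GFP- cells against 0 and 1.65 in those of FL, and *Rgs2* at 92.7 and 59.1 against 3.68 and 6.85. *Rgs1* was lower in GFP+ cells of both tissues. *Dpp4*, which encodes a protease that inactivates CXCL12, was listed at 0 in FL GFP+ and was at 6.97 to 15.8 FPKM elsewhere. All 8 other chemokine receptor genes were past 2-fold higher in BM, with and without the BM GFP+ library. They were led by *Ccr7* (230 and 62.7 FPKM in BM GFP+ and GFP- cells, 0 in both FL libraries), *Cxcr5* (65.9 and 17.2 against 0.0324 and 0.0268) and *Ccr2* (45.4 and 10.9 against 0.048 and 0.225), and included *Cxcr3*, *Ccr1* and *Cxcr2*. Their products are known from lymphocytes and mature myeloid cells, and the B cell, T and NK cell and neutrophil sums were higher in the same BM libraries.

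Of 21 other integrin subunit genes, 10 reached an FPKM of 1 in a library. Of these 10, 6 were past 2-fold higher in BM and *Itgb5* was higher in FL. Between the GFP- libraries alone, *Itga2b*, *Itgad* and *Itgb7* were higher in BM and *Itga9* was higher in FL, of 7 compared. *Itgb7*, a second partner of the α4 chain, was at 25.7 FPKM (FL GFP+), 5.51 (FL GFP-), 120 (BM GFP+) and 47.9 (BM GFP-). It was past 2-fold higher in GFP+ cells of both tissues as deposited, and under it in BM (1.82-fold) with equal FPKM totals. In FPKM, *Itgb7* mRNA exceeded *Itga4* mRNA in both BM libraries, where *Itga4* to *Itgb7* was 0.0749 in GFP+ and 0.119 in GFP- cells. The excess was smaller in FL GFP+ cells, with 0.808, and *Itga4* exceeded *Itgb7* in FL GFP- cells, with 2.64. Protein was not measured. *Itgam*, the αM chain that pairs with *Itgb2* on myeloid cells, was likewise higher in GFP+ cells of both tissues, at 13.0 and 5.20 FPKM in FL and 39.0 and 9.11 in BM. *Itga2b*, the platelet integrin chain, was at 12.5 and 11.7 FPKM in FL and 52.2 and 69.8 in BM GFP+ and GFP- cells.

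The 14 genes that activate integrins or link them to actin included 3 past 2-fold between the tissues, *Rasgrp2*, *Ilk* and *Ptk2*, and 3 between the GFP- libraries alone, *Rasgrp2*, *Rap1a* and *Ptk2*. *Cdc42* (284 to 470 FPKM), *Rac2* (177 to 437) and *Fermt3* (216 to 295), which encodes kindlin-3, were the most abundant. *Rasgrp2* and *Ilk* were past 2-fold higher in BM, and *Ptk2*, which encodes focal adhesion kinase, was higher in FL, at 24.0 and 8.21 FPKM in FL GFP+ and GFP- cells and 2.84 and 1.40 in BM. *Ptk2* and *Vcl*, the gene for vinculin, were past 2-fold higher in GFP+ cells of both tissues, *Vcl* at 33.5 against 5.34 FPKM in FL and 19.9 against 8.39 in BM. With equal FPKM totals the BM folds of *Ptk2* (1.48) and *Vcl* (1.73) were under the rule. Of the genes for integrin ligands, *Icam2* was even at 88.1 to 109 FPKM and *Icam1* was at 41.2 and 33.7 in FL and 21.2 and 19.9 in BM. *Vcam1*, which macrophages and stroma of the niche express, was past 2-fold higher in GFP+ cells of both tissues, at 5.56 against 0.841 FPKM in FL and 27.3 against 4.77 in BM. The macrophage sum was higher in GFP+ cells of both tissues as well, at 79.5 against 45.3 in FL and 308 against 99.9 in BM, but in FL its genes were split. There 4 of the 8 were past 2 times higher in GFP+ cells and 4 in GFP- cells, among the latter *C1qa* (0 against 3.57 FPKM) and *Cd68* (0.157 against 17.8).

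Among selectins and their ligands, *Cd24a*, which encodes a ligand of P-selectin, was at 762 and 389 FPKM in BM GFP+ and GFP- cells and 257 and 261 in FL. *Cd34* was higher in FL, at 221 and 226 FPKM, than in BM GFP+ (48.4) and BM GFP- cells (182), and *Selp* followed with 18.8 and 18.1 against 2.61 and 9.43. *Fut7*, the fucosyltransferase that completes selectin ligands on PSGL-1, was at 24.2 FPKM (FL GFP+), 2.85 (FL GFP-), 24.7 (BM GFP+) and 34.8 (BM GFP-), so that FL GFP+ and both BM libraries were near each other. For hyaluronan, *Hmmr* was at 13.6 to 26.2 FPKM and *Has2* was listed at 0 in all libraries.

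In the S1P axis, *Klf2*, the transcription factor known to drive *S1pr1*, was listed at 0 in FL GFP+ and was at 0.749 in FL GFP-, 127 in BM GFP+ and 32.3 FPKM in BM GFP- cells. *Cd69*, whose product takes S1PR1 from the cell surface, was at 2.12 and 1.82 FPKM in FL and 142 and 53.2 in BM GFP+ and GFP- cells. Both were past 2-fold higher in BM GFP+ than in BM GFP- cells, as *S1pr1* was. *S1pr4* was the most abundant receptor gene of the family in each library, at 43.5 to 79.5 FPKM over the 4 libraries. *S1pr2* and *Sgpl1*, the S1P lyase gene, were past 2-fold higher in BM, at 19.3 and 9.47 against 3.54 and 7.90 FPKM and at 29.6 and 15.9 against 3.60 and 11.6.

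Other adhesion genes split by tissue. *Esam* (183 and 151 FPKM in FL, 20.9 and 51.1 in BM GFP+ and GFP- cells), *Jam3* (56.2 and 40.8, 0.561 and 11.6), *Robo4* (34.0 and 54.0, 4.98 and 5.33) and *F11r* (16.9 and 17.4, 4.81 and 13.1) were past 2-fold higher in FL. *Esam*, *Jam3* and *Robo4* were so between the GFP- libraries alone. *Esam*, *Jam3* and *F11r* were also past 2-fold lower in GFP+ than in GFP- cells of BM, where 10 of 11 LSK-SLAM markers were lower. *Cd9* (59.7 and 73.2 against 182 and 173) and *Cd82* (43.8 and 39.4 against 154 and 57.9) were past 2-fold higher in BM. *Cd47* was even, at 218 to 324 FPKM.

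The genes with the most similar profile over the 4 libraries were sought among the 8689 genes that reached 10 FPKM in a library, by the distance of mean-centred log2(FPKM + 1) values, for the 2 members with the widest range. Nearest to *S1pr1* were *Gpcpd1* (distance 0.266), *Sh3bp5* (0.269) and *Tmsb10* (0.275), the last at 137, 131, 778 and 203 FPKM in FL GFP+, FL GFP-, BM GFP+ and BM GFP- cells. Nearest to *Itga6* were *Zfp783* and *Zfp956* (both 0.236, with the same FPKM in every library, so that they are not independent) and *Atxn3* (0.344). In both cases 1 of the 4 libraries, BM GFP+, sets most of the profile. Among the 9 genes the closest pair on this scale was *Cxcr4* and *Selplg*, at a distance of 0.14. The added 1 narrows the differences of *Cxcr4*, which was low in every library. In FPKM the pair was less alike, with BM above FL by 8.84-fold for *Cxcr4* and 3.07-fold for *Selplg*.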

How the data were processed

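RNA from 4 sorted LSK-SLAM populations, 1 library each, had been prepared with a mirVana kit and the SMARTer protocol and sequenced on a HiSeq2000. The authors deposited FPKM values obtained with Bowtie, TopHat and Cufflinks (version 2.2.1 in the submitters' processing notes), with corrections for fragment bias and multiply mapped reads, and normalized across libraries with Cuffnorm's geometric method. The paper's methods name NCBI37/mm9 as the genome and the processing notes name mm10. Coordinates and sequences here are RefSeq's for GRCm38.p6 (mm10), and no value depends on them. Read counts are not in these files and low FPKM values gave no common step from which reads could be recovered, so the number of reads behind each value is unknown and no interval is given, although the study states the mapped reads of each library. FPKM estimates of genes that share reads rest on the multi-read correction.

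Samples were grouped by their titles. Each table lists 23906 symbols, of which 12372 (FL GFP+), 15556 (FL GFP-), 13489 (BM GFP+) and 17345 (BM GFP-) were above 0, and FPKM totals were 646854, 541453, 1000848 and 729311. Folds are of FPKM, differences of log2(FPKM + 1). For the tissues, a gene was called when both libraries of one lay above both of the other and the geometric means differed past 2-fold, with zeros set to 0.01. Alternatives were a pseudocount of 0.1, thresholds of 1.5-fold and 4-fold, no minimum or a minimum FPKM of 10, 3 scalings, and each GFP fraction alone, the last added after seeing the data for the wider list, as were the scalings of the GFP- libraries alone and of the wider-list genes past 2-fold in both GFP comparisons. The genes named are the 9 members and, from the wider list, those past 2-fold in the same direction in both GFP comparisons, those past it between tissues with an FPKM of at least 10, and the 3 most abundant of each subgroup, with some of them given as counts. *Itgb5* was named after its values were seen. The values of 1 gene of the wider list are not reported here. Members and lists were chosen with earlier results of these data known. *Ighm* of the B cell list was not analysed here, and 4 of its 5 genes were. Python 3.11.15, numpy 2.4.6, pandas 2.3.3 and matplotlib 3.10.9 were used.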

Additional observations from a re-analysis of the deposited data

Results flagged for a closer look

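Members whose FPKM in GFP+ cells was more than 1.5 times higher than in GFP- cells of one tissue and more than 1.5 times lower in the other were *Itgal* and *Cxcr4*. *Itgal* was 2.64-fold higher in GFP+ cells of BM and 1.93-fold lower in GFP+ cells of FL. *Cxcr4* was 1.95-fold higher in GFP+ cells of BM and 2.36-fold lower in those of FL, where it was under an FPKM of 1 in both fractions. The rule was applied to FPKM as deposited, and the share of all genes that meet it was not computed. With equal FPKM totals the BM difference on the log2(FPKM + 1) scale fell from 0.73 to 0.37 for *Cxcr4* and from 1.31 to 0.87 for *Itgal*. Each direction rests on 1 library per fraction, and the difference between the tissues was not tested.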

How the results depend on the processing

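No paired analysis was possible because the labels give no replicate numbers and no result came from a test, and a fit of GFP with tissue as a block was not run. In FL, the count of members past 2-fold went from 0 to 1 with each of the 3 scalings and at a threshold of 1.5-fold (*Itgal* each time), and to 1 without the minimum FPKM (*Cxcr4*). In BM it went from 4 to 7 at 1.5-fold and to 2 at 4-fold (*S1pr1* and *Itga6*). Between the tissues it went from 5 to 3 with equal FPKM totals, with equal totals without microRNA and small nucleolar RNA genes, and in the GFP- libraries alone (*Cxcr4*, *Selplg* and *Itga4* each time), to 3 in the GFP- libraries with either kind of equal totals (*Cxcr4*, *Itga4* and *Itgal*) and to 2 with equal upper quartiles (*Cxcr4* and *Itga4*), and to 1 at 4-fold (*Cxcr4*). For the wider list, the FL count of 23 became 13 at 4-fold, 41 without the minimum and 13 with a minimum of 10, the BM count of 32 became 50 at 1.5-fold and 13 at 4-fold, and the tissue count of 40 stayed between 29 and 47 under every alternative. Its 6 genes past 2-fold in the same direction in both GFP comparisons became 4 with either kind of equal totals and 5 with equal upper quartiles. For the other thresholds, the scalings and no minimum, the share of all genes was not computed. The counts of members and of the wider list under these settings cannot be set against it. Of 126 differences of single members recomputed under the scalings, the pseudocount of 0.1 and each GFP fraction alone, 105 kept their side of the 2-fold rule and moved by less than 1.5-fold. A scaling shifts every FPKM ratio of a comparison by the same amount, -0.59 (log2) at the largest. Under the scalings a move of 1.5-fold was thus nearly out of reach, and the count of 105 is no measure of robustness. Equal totals shifted all genes by -0.26 in FL, -0.46 in BM and -0.53 between BM and FL (log2). The sign changed for *Cd44* in BM and between tissues and for *Itgal* between tissues, none of them past 2-fold. Precision of low FPKM values such as those of *Cxcr4* and *Itga6* is limited by read numbers per gene, which are not known here.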
